A study of Mus musculus with 24 samples.

Results

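The AMPK and mTOR nutrient sensors examined here were 10 genes, picked by symbol from the 55471 genes counted in mouse hypothalamus: the AMP-activated protein kinase (AMPK) subunits Prkaa1, Prkaa2 and Prkab1, the mTOR complex 1 (mTORC1) genes Mtor and Rptor, its upstream regulators Tsc1, Tsc2 and Rheb, and the sestrins Sesn1 and Sesn3. All 10 passed the filter on low counts, which 18992 genes passed. The animals were male C57BL6/J mice on chow, 18 weeks of age at the start, each carrying a gastric infusion line. Experimentally overfed (ExpOF) mice received a sucrose-enriched liquid diet whose rate rose to 150% of energy by day 9, while control mice received sterile water at matching rates. Whole hypothalami were collected at the end of overfeeding on day 14 (d14) or 3 days after it had stopped (d14+3), when both arms received water. There were 6 mice in each of ExpOF d14, Control d14+3 and ExpOF d14+3. Control d14 had 5, after 1 library that did not pass the study's quality check was left out. The library taken as that one, Control d14 replicate 4, has an RNA integrity number of 9.8 in the labels, within the 8.0 to 10.0 of the 5 kept, so this number does not mark it.

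AMPK is a heterotrimer of a catalytic alpha, a scaffolding beta and a nucleotide-binding gamma subunit that is switched on when cellular energy falls, and in the arcuate nucleus it is known as an energy sensor of feeding neurons. mTORC1 is the kinase complex that promotes protein synthesis and growth when amino acids, growth factors and energy are ample. The TSC complex holds the GTPase Rheb, the direct activator of mTORC1, inactive, and sestrins restrain mTORC1 through the GATOR complexes. Much of this control acts through phosphorylation and binding of proteins, which RNA levels do not report.

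To give the regulatory sequence behind the transcripts that are compared below, the 250 bases before the RefSeq start site were read for the members (GRCm38.p6). All 10 members matched, with 11 windows, since Sesn1 had a pair of start sites. Shown here are both catalytic AMPK subunits, Mtor and the start sites of the 2 sestrins, taken where the window held no annotated exon. They run 5′ to 3′ on the strand of the gene, and capitals mark GC boxes (GGGCGG) and CCAAT boxes (CCAAT), searched on both strands with overlapping matches counted.
Prkaa1, chr15:5143611-5143860, plus strand: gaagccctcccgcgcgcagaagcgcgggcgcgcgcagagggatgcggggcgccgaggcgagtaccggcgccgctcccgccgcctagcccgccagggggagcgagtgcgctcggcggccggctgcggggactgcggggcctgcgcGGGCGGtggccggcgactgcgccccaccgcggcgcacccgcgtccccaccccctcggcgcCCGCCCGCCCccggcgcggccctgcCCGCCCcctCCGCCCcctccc
Prkaa2, chr4:105109899-105110148, minus strand: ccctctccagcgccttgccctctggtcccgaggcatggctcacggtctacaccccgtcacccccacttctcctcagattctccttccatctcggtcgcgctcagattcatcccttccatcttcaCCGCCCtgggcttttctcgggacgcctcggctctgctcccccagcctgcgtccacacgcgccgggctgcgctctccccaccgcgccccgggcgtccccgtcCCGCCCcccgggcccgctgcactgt
Mtor, chr4:148448332-148448581, plus strand: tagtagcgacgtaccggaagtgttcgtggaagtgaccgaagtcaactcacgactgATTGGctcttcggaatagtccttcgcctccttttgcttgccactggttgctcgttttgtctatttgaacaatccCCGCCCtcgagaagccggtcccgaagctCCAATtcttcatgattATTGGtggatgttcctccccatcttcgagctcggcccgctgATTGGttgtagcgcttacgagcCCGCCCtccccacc
Sesn1, chr10:41887189-41887438, plus strand: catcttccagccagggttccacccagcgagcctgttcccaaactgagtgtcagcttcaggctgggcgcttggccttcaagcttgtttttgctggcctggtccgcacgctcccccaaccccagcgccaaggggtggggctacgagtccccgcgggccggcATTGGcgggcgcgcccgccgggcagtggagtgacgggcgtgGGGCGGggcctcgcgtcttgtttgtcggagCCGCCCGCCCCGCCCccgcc
Sesn3, chr9:14276051-14276300, plus strand: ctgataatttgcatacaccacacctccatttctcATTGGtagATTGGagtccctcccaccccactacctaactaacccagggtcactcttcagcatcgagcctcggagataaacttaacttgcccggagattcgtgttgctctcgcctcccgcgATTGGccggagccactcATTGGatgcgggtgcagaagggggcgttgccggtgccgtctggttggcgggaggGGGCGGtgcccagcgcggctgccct

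The Prkaa1 window held 45 CpG dinucleotides and 5 GC boxes at 85.2% GC, against a median of 6 CpG and 52% GC over 27025 promoters. A GC box was found in 32.9% of those promoters and a CCAAT box in 34.5%. Prkaa2 had 2 GC boxes and 24 CpG, and no CCAAT box stood in either catalytic subunit window. Mtor and Sesn3 each had 4 CCAAT boxes, with 2 and 1 GC boxes. The Sesn1 window had 4 GC boxes and 1 CCAAT box. At the low end, Rptor (37.6% GC, 9 CpG) had none of these motifs, and neither had Prkab1, Tsc1 or Tsc2. The TATA box (TATAAA, in 13% of promoters) and the FOXO core (GTAAACA, in 3.09%) were in none of the 11 windows, and the E-box (CACGTG, in 6.05%) was found only in Rheb among the members, once. A match or its absence describes these letters only.

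The libraries used held between 8928182 and 34848437 counts assigned to genes. Hypothalamic markers were present throughout, with Oxt, Avp, Hcrt, Pmch, Trh, Crh, Gal, Sim1 and Nkx2-1 summing to between 492 and 1280 CPM (counts scaled by library size). On d14 their sum was 662 to 895 CPM in ExpOF against 696 to 1280 CPM in Control mice. Of the 9, 2 were higher and 5 had an unadjusted p under 0.05, against 26.7% of all genes, with a median log2 fold change of -0.14. Choroid plexus markers summed to 3030 CPM in Control d14 replicate 5 and 1290 CPM in ExpOF d14+3 replicate 4, and to at most 60.3 CPM elsewhere. Pituitary markers were highest in Control d14 replicate 1 at 105 CPM, against a median of 2.53 CPM, with Lhb at 0 in every library. The 5 leptomeningeal markers were all lower in ExpOF d14 than in Control d14, with summed levels of 244 to 370 against 312 to 624 CPM. Of these, 3 of 5 had an unadjusted p under 0.05, against 26.7% of all genes. Marker lists of neurons in general, astrocytes, oligodendrocytes, microglia and endothelial cells had median log2 fold changes from -0.12 to 0.02 on d14. In each of them 1 or 2 genes had an unadjusted p under 0.05. The part of these marker lists in the member differences was not tested. RNA integrity numbers averaged 9.20 in Control d14 (SD 0.860) and 9.75 in ExpOF d14 (SD 0.138), and 8.62 in Control d14+3 (SD 1.09) and 9.43 in ExpOF d14+3 (SD 0.450). In bulk tissue, fewer cells of a type and less RNA per cell cannot be told apart.

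Levels were compared between genes as CPM per kilobase of annotated exonic length, over 23 libraries. Sesn3 had the highest level at 15.96 ± 2.27 CPM per kilobase (SD, n = 23), followed by Mtor at 14.53 ± 1.22 and Tsc2 at 14.13 ± 1.14. Sesn1 (13.7 ± 0.657) and Rheb (12.76 ± 0.769) came next, then Prkaa1 (10.17 ± 1.35), Tsc1 (9.09 ± 0.986) and Rptor (7.45 ± 0.557). The lowest were Prkab1 at 5.46 ± 0.771 and Prkaa2 at 4.17 ± 0.627 CPM per kilobase. Neighbours near the top overlapped: Sesn3 exceeded Mtor in 18 of 23 libraries, Mtor exceeded Tsc2 in 16 and Tsc2 exceeded Sesn1 in 14, so their order lay within the spread. Rheb exceeded Prkaa1 in all 23 libraries, and Prkab1 exceeded Prkaa2 in 18.

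**Figure D1:**
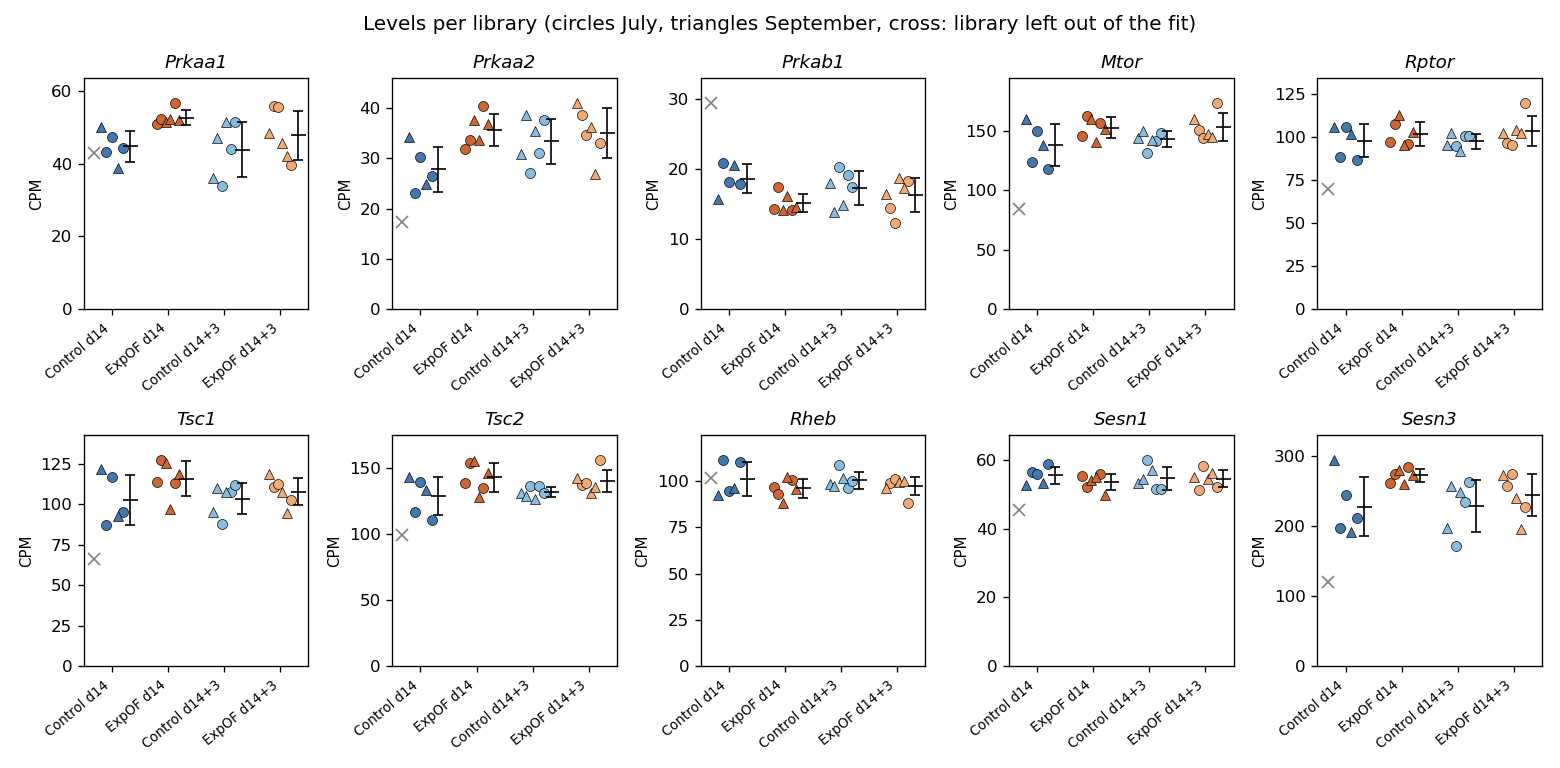
Level of each gene in CPM (y axis, from 0) in every library, by group; circles are mice killed in July, triangles those killed in September, bars give mean ± SD over the libraries used, and the grey cross is the Control d14 library left out. All 6 ExpOF d14 values of Prkaa1 (50.8 to 56.57 CPM) lie above the 5 Control d14 values (38.9 to 50.01 CPM).

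At the end of overfeeding, the mean levels of both catalytic AMPK subunits were higher in ExpOF than in control mice (1.17-fold for Prkaa1, 1.28-fold for Prkaa2) and that of the beta1 subunit Prkab1 was lower (0.814-fold). No member passed the adjusted threshold. The comparison was made with edgeR's quasi-likelihood test, with Benjamini-Hochberg adjustment over 18992 genes. At an adjusted p under 0.05 it called 0 of 10 members, where 0.00527% of all genes (1 gene) were called. At an unadjusted p under 0.05 it gave 6 of 10 members, 5 of them higher, against 26.7% of all genes and 13.1% higher. DESeq2 also called 0 of 10 members, against 0.443% of the 39939 genes with a p-value (177 genes). It had 6 of 10 at an unadjusted p under 0.05, against 5515 of 39939 genes.

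Prkaa1, which encodes the catalytic alpha1 subunit (ENSMUSG00000050697, mm10 chr15:5143861-5181899), measured 50.01, 43.23, 47.25, 38.9 and 44.32 CPM in the 5 Control d14 mice. In the 6 ExpOF d14 mice its lowest, median and highest values were 50.8, 52.12 and 56.57 CPM. Every overfed mouse was above every control mouse, although the gap to the highest control was small. Such a separation in either direction was found in 1 of 10 members and in 2.50% of all genes. The log2 fold change was 0.23 ± 0.103 (SE; edgeR, adjusted p = 0.163), and the two-sided exact permutation test on log2 CPM gave p = 0.00433, the smallest that 6 against 5 mice allow.

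Prkaa2 encodes the alpha2 subunit, the other catalytic form (ENSMUSG00000028518, chr4:105029874-105109890). Its Control d14 values were 34.31, 23.13, 30.21, 24.98 and 26.51 CPM, and ExpOF d14 ran from 31.79 through a median of 35.22 to 40.34 CPM. The groups overlapped through a single control, Control d14 replicate 1, and 3 of 6 overfed mice were above all controls. The log2 fold change of 0.35 ± 0.109 (SE) was the largest of the members (edgeR, adjusted p = 0.135; exact permutation p = 0.0173).

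Prkab1, the beta1 scaffold (ENSMUSG00000029513, chr5:116013586-116024508), had the opposite sign. Control d14 mice had 15.75, 20.79, 18.12, 20.52 and 17.9 CPM, against 14.16, 14.48 and 17.44 CPM as the lowest, median and highest of ExpOF d14. Of the overfed mice, 4 of 6 were below every control, and the lowest control was again replicate 1. The log2 fold change was -0.30 ± 0.108 (SE; edgeR, adjusted p = 0.138; exact permutation p = 0.013).

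The ratio of alpha to beta within a library, in CPM per kilobase, was also taken. These ratios were chosen after the values were seen and are given with no test. Prkaa1 to Prkab1 was 2.30 ± 0.224 (SD, n = 6) in overfed and 1.61 ± 0.328 (n = 5) in control mice on d14, and Prkaa2 to Prkab1 was 0.914 ± 0.136 against 0.589 ± 0.162. Among the overfed mice the Prkaa1 to Prkab1 ratio ran from 1.97 to 2.62, and among controls from 1.25 to 2.09. The balance of the catalytic subunits, Prkaa2 to Prkaa1, was 0.396 ± 0.0262 against 0.362 ± 0.0332.

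For mTORC1, Mtor, the kinase itself (ENSMUSG00000028991, chr4:148448611-148557683), had 159.8, 124, 149.4, 137.8 and 117.8 CPM in Control d14. ExpOF d14 ranged from 140.8 to 162.3 CPM with a median of 153.6. Of the controls, 3 lay below the overfed range and the others within it. The log2 fold change was 0.15 ± 0.0694 (SE; edgeR, adjusted p = 0.18; exact permutation p = 0.113). Rptor, the scaffold that brings substrates to mTORC1 (ENSMUSG00000025583, chr11:119602905-119899407), overlapped throughout, at 86.66 to 106.2 CPM in controls and 95.2 to 112.9 CPM in overfed mice (log2 fold change 0.06 ± 0.0668; edgeR, adjusted p = 0.568).

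Tsc1 and Tsc2, the partners of the TSC complex that inactivates Rheb, had differences close to that of Mtor. Tsc1 (ENSMUSG00000026812, chr2:28641228-28691167) was 121.6, 86.82, 116.8, 92.96 and 95.08 CPM in Control d14, and 96.72 to 127.1 CPM, median 116, in ExpOF d14. Tsc2 (ENSMUSG00000002496, chr17:24595816-24632627) was 142.5, 116.6, 139.3, 133.3 and 110.2 CPM in Control d14, and 127.4 to 155.1 CPM, median 142.3, in ExpOF d14. Both pairs of groups overlapped widely. Their log2 fold changes were 0.17 ± 0.0886 and 0.15 ± 0.0662 (SE; edgeR, adjusted p = 0.207 and 0.156). Rheb, the GTPase they act on (ENSMUSG00000028945, chr5:24802823-24842624), was 88.22 to 102.3 CPM in overfed and 92.66 to 111.2 CPM in control mice (log2 fold change -0.07 ± 0.0574; edgeR, adjusted p = 0.395).

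Of the sestrins, stress-inducible proteins that bind GATOR2, Sesn3 (ENSMUSG00000032009, chr9:14275067-14325817) had 293.7, 197.2, 243.7, 191.3 and 210.7 CPM in Control d14 and 260, 273.5 and 283.6 CPM as the lowest, median and highest of ExpOF d14. Of the controls, 4 of 5 were below all overfed mice, and Control d14 replicate 1 was above all of them. The log2 fold change was 0.26 ± 0.111 (SE; edgeR, adjusted p = 0.153; exact permutation p = 0.0519). Sesn1 (ENSMUSG00000038332, chr10:41809935-41908424) was at 49.67 to 55.78 CPM in overfed and 52.76 to 58.94 CPM in control mice (log2 fold change -0.05 ± 0.0516; edgeR, adjusted p = 0.529).

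**Figure D2:**
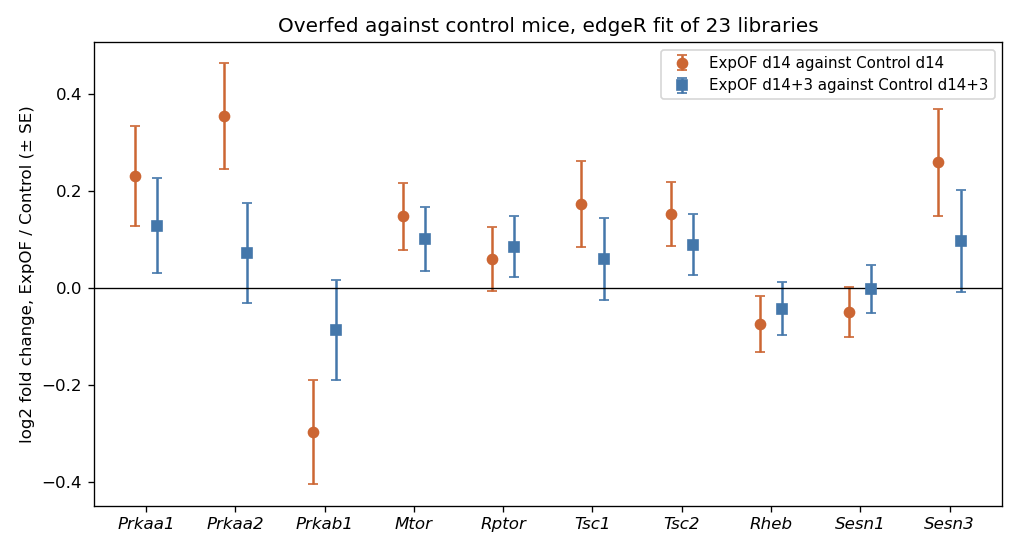
Log2 fold change of ExpOF over Control for each gene (y axis; points with SE bars, edgeR fit of 23 libraries) on d14 (circles) and d14+3 (squares). On d14 Prkaa2 is highest at 0.35 and Prkab1 lowest at -0.30, and on d14+3 all values lie between -0.09 and 0.13.

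Most members are long genes, and differences on d14 rose with length over all genes tested. The median log2 fold change was -0.19 below 1000 bases of exonic length, -0.20 from 1000 to 2000, -0.09 from 2000 to 4000, 0.02 from 4000 to 8000 and 0.15 at 8000 bases or more, where 83% of 2757 genes were higher in ExpOF mice and 39.6% had an unadjusted p under 0.05. Exonic lengths of the members ran from 3066 bases (Prkab1) and 3982 (Sesn1) to 13471 (Rptor) and 15269 (Sesn3). As a measure of this in each library, the log2 level of each gene was centred over libraries, and the median of the 4163 genes under 2000 bases was subtracted from that of the 2757 long genes. This balance had a median of -0.331 in Control d14, 0.148 in ExpOF d14, 0.00181 in Control d14+3 and 0.143 in ExpOF d14+3. Control d14 replicate 1 stood apart from its group at 0.163, against -0.463 to -0.0406 in the other 4. The member differences were also taken after each library's trend with annotated exonic length was removed. Such a trend can itself hold a difference between the groups, so the part of length in the member differences was not tested.

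With the length trend removed, the AMPK subunits kept most of their size and Mtor, the TSC genes and Sesn3 did not. The removal acts unequally on them. Mtor, the TSC genes and Sesn3 have 9620 to 15269 bases, in the length class with a median of 0.15. Prkaa1 (4655 bases) and Prkaa2 (7969) are in the class at 0.02 and Prkab1 (3066) in that at -0.09. That the AMPK subunits kept their size is therefore no separate check of their differences. Prkaa1 remained at a log2 fold change of 0.23 ± 0.0999 (SE), Prkaa2 went from 0.35 to 0.26 ± 0.0780 and Prkab1 from -0.30 to -0.24 ± 0.102 (edgeR, adjusted p = 0.222, 0.173 and 0.216). Mtor went from 0.15 to 0.00, Tsc1 from 0.17 to 0.01, Tsc2 from 0.15 to 0.02 and Sesn3 from 0.26 to 0.06. Rptor turned to -0.14, Rheb went to -0.18 ± 0.0791 (edgeR, adjusted p = 0.23) and Sesn1 was -0.03. At an unadjusted p under 0.05 there were then 4 of 10 members, namely Prkaa1, Prkaa2, Prkab1 and Rheb, against 19.6% of all genes, and none at the adjusted threshold. Rheb is annotated at 7721 bases, but across libraries it varied most like genes of 1648 to 3221 bases. The same annotated length sets its level per kilobase. Whether that length suits the removal for Rheb was not tested. The median over the 10 members went from 0.15 to 0.01, and that of all genes tested was -0.02 in both.

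**Figure D3:**
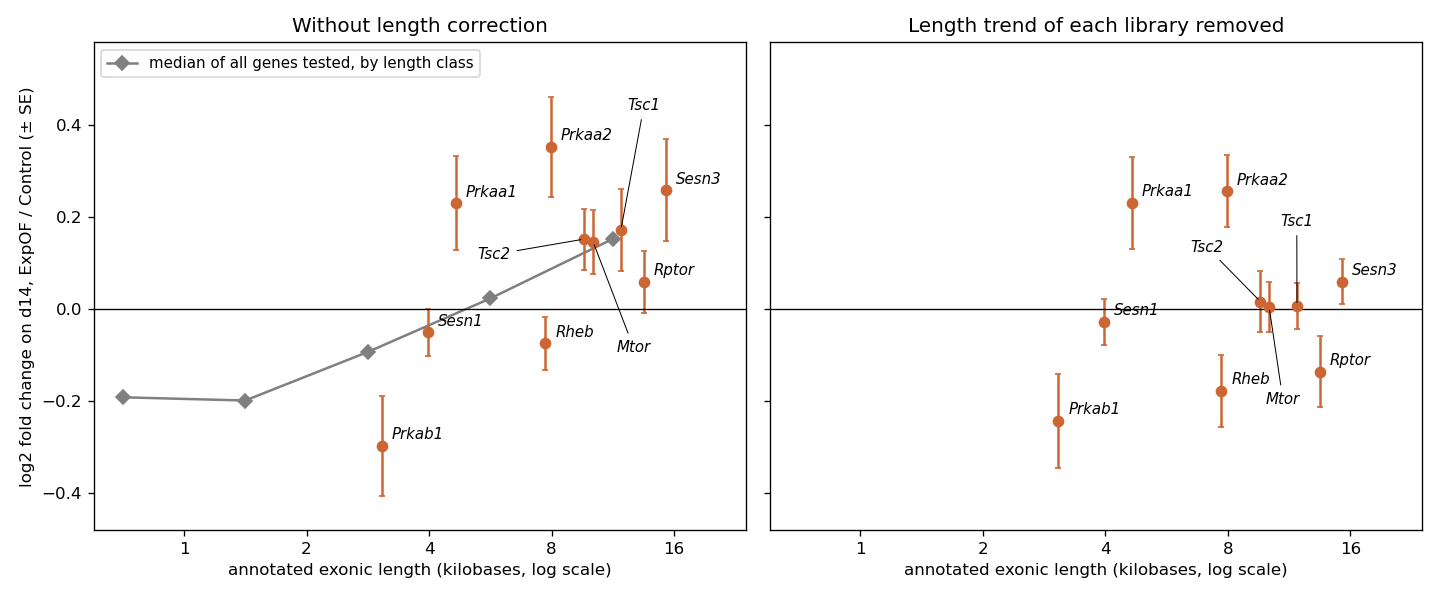
Log2 fold change on d14 (y axis, ± SE) against annotated exonic length (x axis, kilobases, log scale) for the 10 genes, before (left, with the median of all genes tested in 5 length classes in grey) and after (right) removal of each library's length trend. Mtor, Tsc1 and Tsc2 fall to between 0.00 and 0.02, while Prkaa1, Prkaa2 and Prkab1 stay at 0.23, 0.26 and -0.24.

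A single control library decided the calls. Without Control d14 replicate 1, the adjusted threshold was passed by 6 of 10 members, against 22.0% of all genes (4220 genes). Prkaa2 (log2 fold change 0.44, adjusted p = 0.02), Sesn3 (0.37, 0.0218), Mtor (0.21, 0.0332), Tsc2 (0.20, 0.0414) and Tsc1 (0.25, 0.0461) were then higher and Prkab1 (-0.35, 0.0326) lower in ExpOF mice by edgeR, while Prkaa1 was 0.28 (adjusted p = 0.0623). Leaving out other libraries called no member. At an unadjusted p under 0.05 there were 6 members with all libraries, against 5069 of 18992 genes. There were 2 without Control d14 replicate 2 (2776 of 19228 genes) or replicate 6 (3488 of 19110), and 3 without replicate 5 (2876 of 19073). Without Control d14 replicate 3 or ExpOF d14 replicate 4 there were 7 (5625 of 19081 and 5067 of 18877 genes). Leaving out another ExpOF d14 library gave 4 or 6, against 3933 of 18848 to 4763 of 18862 genes. Without Control d14 replicate 5, where the choroid plexus markers were highest, Prkaa1, Prkaa2 and Prkab1 were 0.18, 0.32 and -0.26.

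**Figure D4:**
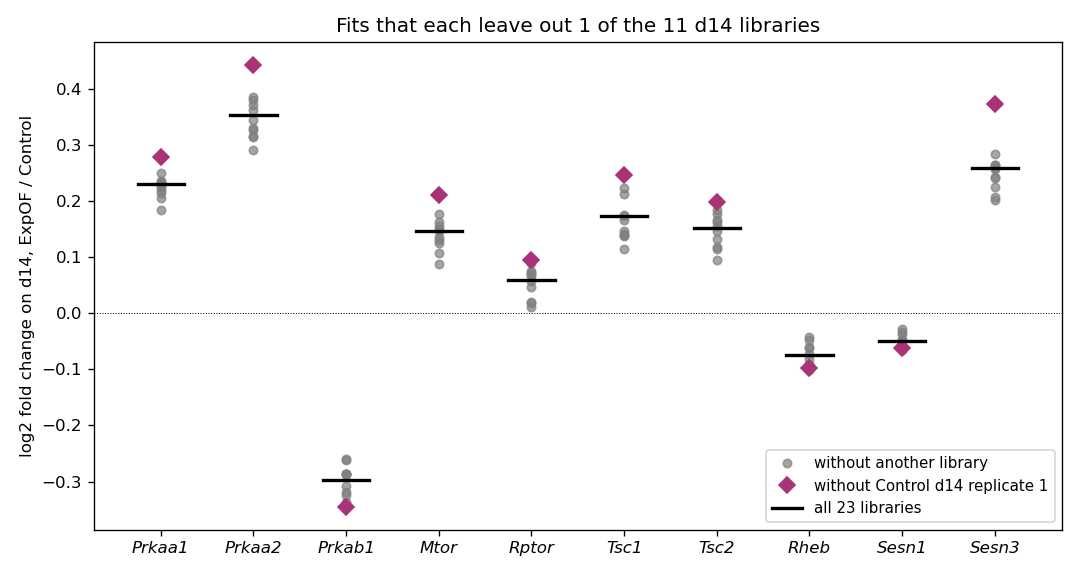
Log2 fold change on d14 (y axis) of each gene in fits that leave out 1 of the 11 d14 libraries (grey points), with the fit without Control d14 replicate 1 as diamonds and that of all 23 libraries as black bars. The diamond is the farthest value from 0 for every gene except Rheb and Sesn1, for example 0.44 for Prkaa2 and 0.37 for Sesn3.

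The dates in the labels give 2 cohorts, killed in July and in September, with 3 mice per group in each and 2 in the September Control d14. The AMPK differences were Prkaa1 0.24 and 0.22, Prkaa2 0.39 and 0.28, and Prkab1 -0.30 and -0.28 in July and September. Their SE ran from 0.135 to 0.183. Those of Sesn3 were 0.33 and 0.16, of Mtor 0.24 and 0.01, of Tsc1 0.24 and 0.08, and of Tsc2 0.22 and 0.05. These were larger in July, with SE from 0.0949 to 0.187. At an unadjusted p under 0.05 there were 4 of 10 members in July, against 18.7% of all genes, and 0 of 10 in September, against 4.40% (edgeR within each cohort). Control d14 replicate 1 is 1 of the 2 September controls. Whether the cohorts differ was not tested.

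On d14+3, 3 days after overfeeding, no member passed the test. At d14+3, edgeR called 0 of 10 members at the adjusted threshold (0% of all genes), 0 of 10 at an unadjusted p under 0.05 (7.11% of all genes), and 0 of 10 had groups without overlap (0.421%). DESeq2 likewise gave 0 at the adjusted threshold (0.108% of 39939 genes) and 0 at an unadjusted p under 0.05 (1695 of 39939 genes). Prkaa1 was 39.6, 46.99 and 55.77 CPM as the lowest, median and highest of ExpOF d14+3, and 33.75, 45.41 and 51.29 CPM in Control d14+3, a log2 fold change of 0.13 ± 0.0977 (SE; adjusted p = 0.778 by edgeR). Prkaa2 was 26.8, 35.4 and 40.95 against 27.03, 33.18 and 38.52 CPM (0.07 ± 0.103), and Prkab1 12.35, 16.86 and 18.72 against 13.94, 17.74 and 20.32 CPM (-0.09 ± 0.103). The spread of these subunits over mice was wider than on d14 in the ExpOF group, and the groups overlapped for all 3, with 2 of 6 overfed mice above every control for Prkaa1. The cohorts went opposite ways for Prkab1, at -0.34 in July (edgeR, unadjusted p = 0.032, adjusted p = 0.583) and 0.16 in September. Prkaa1 was 0.23 and 0.02, Prkaa2 0.15 and -0.01, and Sesn3 0.18 and 0.01 in July and September. Prkab1 was the 1 of 10 members at an unadjusted p under 0.05 in July, against 8.20% of all genes, and there were 0 of 10 in September, against 2.96%.

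RNA integrity differed more between the groups on d14+3 than on d14. With it as a covariate, Prkaa1 on d14+3 went from 0.13 to 0.21 (edgeR, unadjusted p = 0.0547, adjusted p = 0.408), Sesn3 from 0.10 to 0.17 and Tsc1 from 0.06 to 0.11. On d14+3 that fit called 0 of 10 members, against 0.137% of all genes (26 genes), and had 0 of 10 at an unadjusted p under 0.05, against 12.4%. On d14 it gave 0.28 for Prkaa1, 0.36 for Prkaa2, -0.31 for Prkab1 and 0.31 for Sesn3 (edgeR, adjusted p = 0.0886, 0.0816, 0.0886 and 0.0887). There it called 0 of 10 members, against 0.00527% of all genes. At an unadjusted p under 0.05 it had 7 of 10, against 6087 of 18992 genes.

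The other members at d14+3 had log2 fold changes of 0.10 (Mtor), 0.08 (Rptor), 0.06 (Tsc1), 0.09 (Tsc2), -0.04 (Rheb), -0.00 (Sesn1) and 0.10 (Sesn3), with adjusted p from 0.768 to 0.994 by edgeR. The member with the smallest permutation p was Tsc2, at 130.5, 137.8 and 155.6 CPM in overfed and 126.5, 130.8 and 136.2 CPM in control mice (exact permutation p = 0.0303, unadjusted). The Prkaa1 to Prkab1 ratio, again with no test, was 2.01 ± 0.608 (SD, n = 6) against 1.73 ± 0.494 (n = 6).

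Whether the overfeeding difference itself differed between the days was tested as an interaction, which called 0 of 10 members (0% of all genes adjusted; 0 of 10 unadjusted, against 4.42%). The interaction was -0.28 ± 0.150 (log2, SE) for Prkaa2 and 0.21 ± 0.150 for Prkab1 (edgeR, adjusted p = 0.903 for both), so the smaller differences on d14+3 did not differ from those on d14 beyond their error. Within overfed mice, d14+3 against d14 called 0 of 10 members (0% adjusted; 0 of 10 unadjusted, against 7.79%). Prkaa1 was -0.13 ± 0.0977 and Sesn3 -0.15 ± 0.105 there. Within control mice, which got water throughout, d14+3 against d14 called 0 of 10 members (1.15% of all genes), with 1 of 10 at an unadjusted p under 0.05 (12.7%). That was Prkaa2, at a mean of 33.4 ± 4.48 CPM (SD, n = 6) in Control d14+3 and 27.83 ± 4.46 CPM (n = 5) in Control d14 (log2 fold change 0.26 ± 0.109; edgeR, adjusted p = 0.287). The Control d14 mean of Prkaa2 was thus the lowest of the 4 groups, below 35.62 in ExpOF d14 and 35.03 in ExpOF d14+3. Thalamus markers (Prkcd, Rora, Tcf7l2, Calb2 and Ntng1) summed to 437 to 861 CPM in Control d14 and 709 to 1180 CPM in Control d14+3. In ExpOF mice they summed to 462 to 693 CPM on d14 and 648 to 1130 CPM on d14+3. Their part in the differences between days was not tested.

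Members were also compared across mice, after group means were removed. Over 45 pairs and 23 libraries, Pearson r of log2 CPM ran from -0.904 (Rptor and Rheb) to 0.892 (Prkaa2 and Sesn3), with 23 pairs positive. Sesn3, Prkaa1, Prkaa2 and Tsc1 varied together, as did Mtor, Rptor and Tsc2. These sets were not separate. Pairs between them ran from -0.171 (Prkaa1 and Rptor) to 0.696 (Mtor and Tsc1), the latter above Prkaa1 and Tsc1 at 0.639. Within roles, Mtor and Rptor were at r = 0.83 and Prkaa1 and Prkaa2 at 0.703. Prkab1 ran against Prkaa1 (r = -0.718), and Rheb against Mtor (-0.88) and Tsc2 (-0.84). These points share libraries, depth and the length trend above, so they are given as a description.

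**Figure D5:**
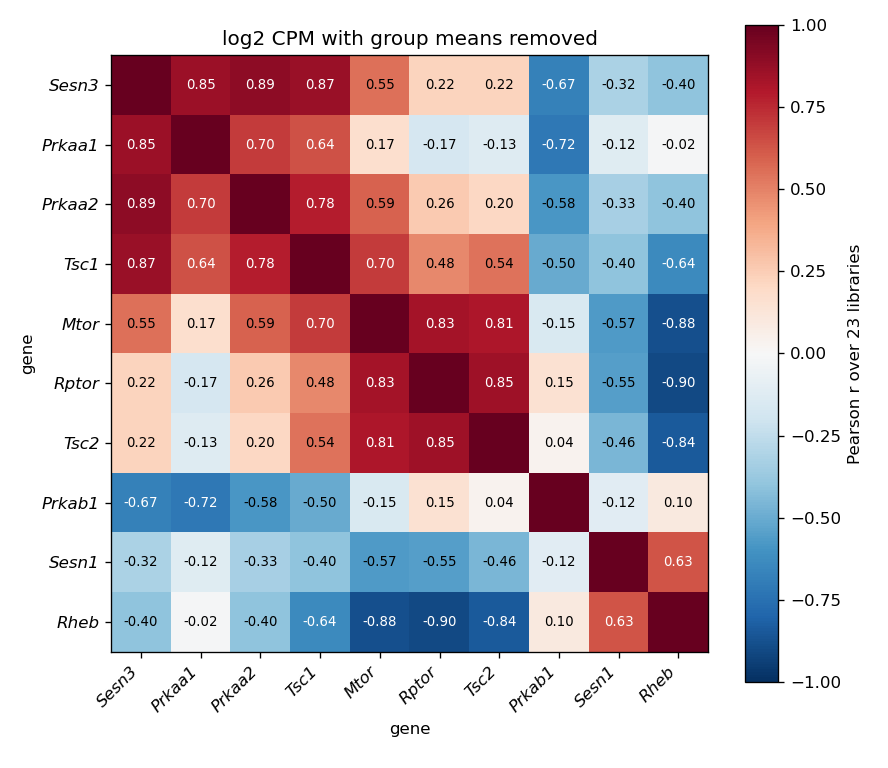
Pearson r of log2 CPM between each pair of genes over 23 libraries with group means removed (colour from -1 to 1, value in each cell). Prkaa2 and Sesn3 are at 0.89, Rptor and Rheb at -0.90.

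Among 14163 other genes, those most like each member were named by the same measure. Sesn3 was most like Fam135b, Map2 and Rsf1 (r = 0.983, 0.983 and 0.982 over 23 libraries), genes of 16456 to 19492 bases. Tsc1 was most like Tnrc6a, Cplane1 and Mdn1 (0.974, 0.966 and 0.954) and Mtor like Kif1a, Pi4ka and Man2a2 (0.958, 0.946 and 0.946). Prkaa1 was most like Tmx3, Mgat4c and Zfp654 (0.97, 0.967 and 0.957), genes of 6261 to 10691 bases. Prkaa2 was most like Slk, Son and Gsk3b (0.953, 0.942 and 0.94), genes of 8356 to 14907 bases. Rptor was most like Pi4ka, Abr and Xpo6 (0.905, 0.901 and 0.896), and Tsc2 like Dop1b, Mast2 and Mapk8ip3 (0.932, 0.894 and 0.89). Rheb was most like Mrfap1, Hmgn1 and Rida (0.97, 0.93 and 0.92), genes of 1648 to 3221 bases. Prkab1 was most like Gps2, Actg1 and Aldh16a1 (0.856, 0.854 and 0.84), genes of 1604 to 5622 bases. Sesn1 was least tightly matched, with Lamtor3, Snu13 and 4833439L19Rik (0.794, 0.781 and 0.778).

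The rest of the pathway was followed in 84 other genes, of which 83 were tested (Prkag3 was not). On d14, edgeR called 0 of 83, with 33 at an unadjusted p under 0.05 (39.8% against 26.7% of all genes), 20 higher and 13 lower. All 20 higher ones were among the 62 genes of 4000 bases or more, and of the 7 under 2000 bases none was higher. The median log2 fold change of the 83 genes was 0.02.

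By role, the named genes had these values on d14, as mean CPM in ExpOF against Control. Among other AMPK subunits, the gamma subunits Prkag1 (32.38 ± 2.74 against 37.66 ± 4.39, log2 fold change -0.22) and Prkag2 (68.34 ± 1.53 against 71.44 ± 4.05, -0.06) were on the side of Prkab1 (SD, n = 6 and 5, here and below), while Prkab2, the other beta subunit, was at 0.08. Of the AMPK-activating kinases, Stk11, which encodes LKB1, was -0.25 (59.55 ± 3.38 against 70.81 ± 9.94) and its partner Cab39 0.14 (207.3 ± 11.5 against 188.7 ± 5.20). Of other mTOR complex subunits, Rictor, the mTORC2 scaffold, was 0.41 (80.19 ± 4.52 against 60.29 ± 12.3) and Deptor, an mTOR inhibitor, 0.25 (42.55 ± 2.43 against 35.88 ± 5.58). The adjusted p of these genes lay between 0.135 (Rictor) and 0.412 (Prkab2) by edgeR.

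Among the Rag GTPases, Ragulator and folliculin, Fnip1, a folliculin partner, was 0.37 and Rragd 0.18, and among the amino acid sensors Bmt2, which encodes the methionine sensor SAMTOR, was 0.48 and the GATOR2 member Sec13 -0.20. Tbc1d7, the third subunit of the TSC complex, was -0.32 (16.78 ± 1.84 against 21.1 ± 2.85), opposite to Tsc1 and Tsc2, and Gsk3b was 0.27. Of the mTORC1 targets, the S6 kinase Rps6kb1 was 0.29 and the autophagy kinase Ulk2 0.18. Of the AMPK targets, Acacb, acetyl-CoA carboxylase 2, was -0.25 and Tbc1d4 0.27. None had an adjusted p under 0.135 by edgeR. With the length trend removed, Tbc1d7 was -0.30, Bmt2 0.45, Fnip1 0.30, Stk11 -0.25 and Rragd 0.17, while Acacb went to -0.40 and Prkag2 to -0.13. The other named genes moved toward 0, with Rictor at 0.20, Rps6kb1 at 0.18, Tbc1d4 at 0.17, Gsk3b and Ulk2 at 0.14, Deptor at 0.13, Cab39 at 0.06, Prkab2 at 0.07, Prkag1 at -0.11 and Sec13 at -0.15.

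On d14+3, edgeR called 0 of the 83, with 3 at an unadjusted p under 0.05 (3.61% against 7.11% of all genes), all lower in ExpOF mice and named after their values were seen. They were Ddit4, which encodes the mTORC1 inhibitor REDD1 (27.87 ± 3.68 against 36.09 ± 7.00 CPM, SD, n = 6 each, log2 fold change -0.37, adjusted p = 0.438 by edgeR), its relative Ddit4l (-0.30, adjusted p = 0.6) and the Ragulator gene Lamtor3 (-0.16, adjusted p = 0.676).

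Overlap with other genes can bear on these values, since whether reads were counted by strand is not given in the sources used here. Tsc2 shares 693 bases with Pkd1 on the opposite strand, which had a mean of 171 CPM against 136 CPM for Tsc2. The other overlapping genes were at low levels: Angptl7 within Mtor at 0.481 CPM, Rptoros within Rptor at 0.108, Gm14508 within Prkab1 at 0.894 and Gm15938 within Prkaa1 at 0.0943 CPM, all on the opposite strand. Genes overlapping on the same strand (in Mtor, Rptor, Rheb and Sesn1) had means of at most 0.24 CPM. Prkaa2, Tsc1 and Sesn3 overlapped no other gene.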

How the data were processed

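Hypothalamic poly-A RNA of 24 mice was sequenced as paired 51-base reads, 1 library per mouse. The authors aligned reads with STAR to mm10, counted them per gene with featureCounts 1.6.4 and deposited raw counts per gene without normalization; the strand setting is not given in the sources used here. Counting limits genes with few counts most. Control d14 replicate 4 was left out, as the library whose removal gives the mean normalized count per gene, over all libraries, in the study's gene table.

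Differential expression was tested with edgeR 4.0.16 under R 4.3.3 (TMM, filterByExpr with minimum count 10 and minimum total 15, robust quasi-likelihood F-test, 4 groups in 1 fit, no covariate), adjusted over 18992 genes by Benjamini-Hochberg with a threshold of 0.05. CPM use TMM factors, and log2 CPM add a prior count of 2. For single values, two-sided exact permutation tests over mice were used. Length trends were removed by offsets from a spline with 5 degrees of freedom. The edgeR test was also run on simulated counts for the d14 comparison. Of 200 genes changed up or down by a log2 of 1, it called 163, with 9 other calls. With 0 genes changed it called 0. These counts held no length trend, and changes as small as those of the members were not simulated.

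The members, pathway lists and markers were chosen with earlier results of these data known. All 10 members are named, in each of 8 pathway lists the 2 genes with the smallest p on d14, and for each member the 3 genes most correlated with it. Prkab2, Ddit4, Ddit4l and Lamtor3 were named with their values known. Alternatives were another tool (DESeq2 1.42.0), size factors, filters, covariates, cohorts, all 24 libraries, a replicate block and each library left out. Symbols came from GENCODE vM21 and promoters from RefSeq. Replicate numbers do not pair the mice: deviations of same-numbered d14 mice correlated at -0.153 to -0.0236 over 5 pairs.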

Additional observations from a re-analysis of the deposited data

Results flagged for a closer look

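Prkaa1 in ExpOF d14 replicate 5 measured 56.57 CPM and stood apart from the other 5 mice of its group, which lay between 50.8 and 52.26 CPM (Dixon ratio 0.746). This library had the fewest counts of those used, 8928182, with 502 for Prkaa1. Its blood markers (Hba-a1, Hba-a2, Hbb-bs, Hbb-bt and Alas2) summed to 287 CPM, the highest of the libraries used. The part of depth or blood in this value was not tested. Rptor in ExpOF d14+3 replicate 6 measured 119.8 CPM, against 95.3 to 104.3 CPM in the other 5 (Dixon ratio 0.632). Of 40 groups of values examined, 2 stood out in this way, and chance gives about 1 in 20. Prkab1 in Control d14 replicate 4, the library left out of the comparisons, measured 29.39 CPM when all 24 libraries were scaled together, against 15.7 to 20.61 CPM in the other Control d14 mice.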

How the results depend on the processing

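Of the main results under their alternatives, 171 values kept their direction and side of the threshold, while 3 were marked as moved and 1 as stronger. The count of members called on d14 was 0 except without Control d14 replicate 1, where it was 6, so that leaving out single libraries gave 0 to 6. The median log2 fold change of the members on d14 was 0.15, ranged with single libraries left out from 0.09152 (without Control d14 replicate 6) to 0.2041 (without Control d14 replicate 1) and was 0.2324 in July mice, 0.031 in September mice, 0.2322 with all 24 libraries and 0.005983 with the length trend removed. On d14+3 it was 0.08, with single libraries left out from 0.02571 (without Control d14+3 replicate 3) to 0.09733 (without ExpOF d14+3 replicate 5), 0.04629 without ExpOF d14+3 replicate 1, 0.09268 in July and 0.02219 in September, 0.1012 with RNA integrity as a covariate, and 0.007021 with the length trend removed. For single members, 450 values kept direction and side and 14 changed sign. Another 6 passed the threshold, all without Control d14 replicate 1. Signs turned on d14 for Rptor (-0.009776 in September, -0.1362 with the length trend removed), Rheb (0.009576 in September) and Sesn1 (0.001293 with all 24 libraries), and on d14+3 in September for Prkaa2 (-0.01336), Prkab1 (0.1588) and Sesn1 (0.002301) and with the length trend removed for Tsc1 (-0.0104) and Sesn1 (0.004937). Sesn1 on d14+3 lay between -0.02277 and 0.02546 with single libraries left out. All these single values had adjusted p of 0.308 or more, and the cause was not tested. Over all genes, DESeq2 called 177 on d14 and 43 on d14+3, where edgeR called 1 and 0, and 0 members in both. With a replicate block 0 members were called on d14 (0.00527% of all genes), with a median of 0.167. At an unadjusted p under 0.05 there were 4 of 10 members, against 3968 of 18992 genes. The block changed no call of a member. On d14+3 the deviations of 6 same-numbered pairs correlated at -0.21 to 0.223, 2 of them over 0.1. Depth limits Prkab1 most among the members, at a mean of 16.75 CPM.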

Other observations

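The library left out, Control d14 replicate 4, had lower values than the 5 other Control d14 mice for Prkaa2 (17.41 CPM), Mtor (83.88), Rptor (69.74), Tsc1 (66.16), Tsc2 (99.03), Sesn1 (45.57) and Sesn3 (119.4). Prkaa1 (43.01 CPM) and Rheb (101.6 CPM) lay within their ranges. With all 24 libraries in the fit, the d14 log2 fold changes of Prkaa1, Prkaa2 and Prkab1 were 0.25, 0.45 and -0.41 (edgeR, adjusted p = 0.0837, 0.0633 and 0.0633). That fit called 0 of 10 members, against 1 of 18767 genes.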
